A study of Rattus norvegicus with 20 samples.

Results

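The 200 transcripts described here were selected on their spread among untreated animals. For each of the 36685 rows of the array table (a row is a transcript cluster, the probe set of 1 annotated locus), the SD over 5 lean arrays and the SD over 5 obese arrays were computed and the smaller was kept. The members are the 200 rows with the largest smaller SD, so each varied widely among lean rats and also among obese rats. The smaller SD was 4.62 log2 units for the first member, 1.48 for the last, 1.48 for the first row outside and 0.24 for the median row. The treated arrays took no part in the choice. Everything said below about spread and co-variation in the untreated arrays therefore describes the choice, and the treated arrays are the independent material.

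The tissue, tagged only as subcutaneous, came from ZDF rats labelled male, with the strain tag Zucker. The sex could not be checked here, because none of Xist, Ddx3y, Kdm5d and Uty had a row with 1 symbol. The 4 groups, of 5 arrays each, were lean control rats on Purina 5008 chow, obese rats on a stock diet for 6 weeks, rats given rosiglitazone and rats given resveratrol. Rosiglitazone, an insulin sensitiser, is an agonist of PPAR gamma, and resveratrol is a polyphenol found in grapes. Dose, duration and age are not in the labels, nor is the genotype or diet of the treated rats. The labels number biological replicates within a group, so lean 1 and obese 1 are different samples. Values are log2 expression values after RMA, an array normalisation and probe summary, and they have no absolute zero.

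Adipocyte markers were high in all 20 arrays. Adiponectin (Adipoq) measured 10.55 to 10.96, the fatty acid carrier Fabp4 11.05 to 11.42 and the lipid droplet protein Plin1 9.64 to 10.41, and none of these is a member. Rosiglitazone 3 stood apart in other tissue markers. Its median over 18 contractile genes of skeletal muscle was 4.14, against 1.91 to 2.14 in the other rosiglitazone arrays, and its median over 13 keratinocyte genes was 3.47 against 1.97 to 2.37. In bulk tissue, fewer cells of a type and less RNA per cell cannot be told apart.

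The members fell almost completely into a pair of modules. Module 1 held 145 rows, module 2 held 49, and 6 rows belonged to neither. Modules were the branches of an average-linkage tree on 1 minus Pearson's r over the 10 untreated arrays, each centred on its group mean, ended at a distance of 0.5. The array's annotation gave 1 gene symbol to 30 of the 49 rows of module 2, to 1 of the 145 rows of module 1 and to none of the 6 others, while 40.4% of all rows had one. Module 1 also held rows that repeat one another: 25 had values identical to another row, and its 145 rows comprised 127 distinct profiles.

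Module 2 is led by milk genes. As background, caseins and whey proteins are made by the secretory epithelium of the mammary gland, which in the rat lies within subcutaneous fat. Prolactin drives their transcription through the factor STAT5, which binds palindromes of the type TTCNNNGAA near their start sites, and the transcription factor Elf5 specifies the secretory cells. The caseins package calcium and phosphate in micelles, alpha-lactalbumin switches galactosyltransferase to lactose synthesis, and butyrophilin coats the secreted fat globule.

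Of the caseins in module 2, all 4 have a start site on chromosome 14 in the RefSeq annotation of GRCr8, where Oprpn, an opiorphin precursor gene, also starts. The promoters of the 4 caseins, 250 bases before to 50 bases after the start, are shown because Csn1s1 is the first member and the 4 genes belong to 1 family and 1 module. Capitals mark matches to TTCNNNGAA. They are Csn1s1 (alpha-S1-casein, chr14:20638800-20639099, minus strand), Csn1s2a (an alpha-S2-casein, chr14:20574422-20574721, minus strand), Csn2 (beta-casein, chr14:20601574-20601873, plus strand) and Csn3 (kappa-casein, chr14:20439781-20440080, minus strand).
Csn1s1: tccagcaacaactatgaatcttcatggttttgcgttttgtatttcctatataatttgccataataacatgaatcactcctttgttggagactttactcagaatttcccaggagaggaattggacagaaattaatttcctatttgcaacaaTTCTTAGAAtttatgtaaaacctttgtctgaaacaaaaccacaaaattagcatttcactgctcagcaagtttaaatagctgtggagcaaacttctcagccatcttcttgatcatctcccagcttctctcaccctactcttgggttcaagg
Csn1s2a: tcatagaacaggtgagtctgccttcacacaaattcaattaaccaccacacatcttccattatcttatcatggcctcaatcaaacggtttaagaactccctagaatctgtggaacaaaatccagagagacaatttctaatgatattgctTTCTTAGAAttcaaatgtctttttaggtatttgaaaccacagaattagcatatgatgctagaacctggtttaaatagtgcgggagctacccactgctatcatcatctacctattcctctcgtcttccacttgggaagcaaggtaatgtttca
Csn2: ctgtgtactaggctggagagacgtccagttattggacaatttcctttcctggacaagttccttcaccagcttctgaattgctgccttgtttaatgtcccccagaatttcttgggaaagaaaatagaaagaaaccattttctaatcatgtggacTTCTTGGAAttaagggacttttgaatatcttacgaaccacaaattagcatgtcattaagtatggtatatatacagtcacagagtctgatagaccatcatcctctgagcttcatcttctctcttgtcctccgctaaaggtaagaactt
Csn3: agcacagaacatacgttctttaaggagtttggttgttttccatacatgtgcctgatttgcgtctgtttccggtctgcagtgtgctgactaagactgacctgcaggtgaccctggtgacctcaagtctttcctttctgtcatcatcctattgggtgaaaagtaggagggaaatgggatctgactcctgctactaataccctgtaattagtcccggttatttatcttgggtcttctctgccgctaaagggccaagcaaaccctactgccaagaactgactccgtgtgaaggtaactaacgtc
The letters TTCTTAGAA stand at -100 to -92 in Csn1s1 and at -102 to -94 in Csn1s2a, and TTCTTGGAA stands at -97 to -89 in Csn2, counted from the start site. The Csn3 window holds no match. The motif reads the same on both strands. It occurred in 5 of the 18 named promoters of module 2 for which RefSeq gave a sequence (27.8%; the others are Oprpn and Myo5c), and in 8.87% of 33469 rat promoters of this length. A match is a description of the letters and not evidence of binding.

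Csn1s1, the first member, separated the animals most widely. The lean arrays 1 to 5 measured 6.54, 1.15, 11.39, 11.77 and 11.39, and the obese arrays 1.68, 2.05, 11.32, 11.11 and 5.48. The rosiglitazone arrays measured 10.07, 2.67, 10.69, 2.73 and 10.20, and the resveratrol arrays 3.28, 3.41, 1.53, 1.50 and 1.54. Lean 3, 4 and 5 and obese 3 and 4 were thus high, lean 1 and obese 5 lay between, and the rosiglitazone group again split into high and low arrays. All 5 resveratrol arrays were low. Within lean the values spanned 1.15 to 11.77.

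Kappa-casein and alpha-lactalbumin showed the same arrays. Csn3, the casein that stabilises the micelle surface, measured 3.60, 1.57, 10.80, 11.18 and 10.88 in lean and 1.81, 1.96, 9.78, 10.22 and 2.97 in obese. With rosiglitazone it measured 7.13, 1.83, 8.29, 2.0 and 7.72, and with resveratrol 1.94 to 2.26. Lalba (alpha-lactalbumin) measured 1.52, 0.93, 9.17, 10.44 and 9.90 in lean and 1.0, 0.99, 8.35, 9.90 and 1.43 in obese. In both genes rosiglitazone 1, 3 and 5 lay below the high untreated arrays and above every resveratrol array. Lalba was 4.66, 6.04 and 5.34 in those 3 rosiglitazone arrays, 1.07 and 1.02 in rosiglitazone 2 and 4, and 0.86 to 1.44 with resveratrol.

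Csn2, Csn1s2a and Oprpn followed in the untreated arrays and were dimmer with rosiglitazone. Csn2 reached 7.94, 9.10 and 8.36 in lean 3, 4 and 5 but only 3.60 and 5.79 in obese 3 and 4, so its 2 obese values lay below its 3 high lean ones. Its rosiglitazone values were 1.71 to 3.46 and its resveratrol values 1.52 to 2.09. Csn1s2a reached 10.16 in lean 4, 8.76 in obese 4 and 5.13 in rosiglitazone 3. Oprpn reached 9.36 in lean 4 and 9.0 in obese 4, and its rosiglitazone values were 0.91 to 3.12.

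Genes of milk fat secretion belonged to the same module. Olah, the thioesterase that releases medium-chain fatty acids in the mammary gland, measured 2.81, 1.73, 9.08, 10.75 and 9.89 in lean and 1.51, 2.18, 8.81, 9.91 and 1.99 in obese. With rosiglitazone it measured 5.26, 1.86, 6.09, 1.69 and 5.34, and with resveratrol 1.43 to 1.97. Btn1a1 (butyrophilin) measured 1.54, 1.24, 7.45, 9.22 and 7.97 in lean and 1.17, 1.26, 6.43, 8.41 and 2.0 in obese. Both therefore repeated the split of the caseins. Btn1a1 was 5.60 in rosiglitazone 3 and 1.01 to 1.63 with resveratrol. Muc15, a membrane mucin, had its highest value, 9.68, in lean 4 and measured 1.22 to 1.41 with resveratrol.

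Enzymes of lipid synthesis also belonged to the module. Fads2, the delta-6 desaturase and the only member among 13 rows of a lipogenesis list, measured 3.37, 3.93, 7.10, 9.50 and 8.73 in lean and 3.54, 3.36, 7.50, 8.31 and 3.40 in obese. It measured 5.46, 3.84, 5.67, 3.56 and 5.09 with rosiglitazone and 3.34 to 3.86 with resveratrol. Aacs, which makes acetoacetyl-CoA for lipid synthesis, differed from the milk genes in that rosiglitazone 2 had its highest treated value, 7.27. The median of the whole lipogenesis list was 8.40 and 8.22 in lean 4 and 5, 7.95 in obese 4, 5.77 to 6.90 in the other untreated arrays, 8.02 to 8.89 with rosiglitazone and 6.43 to 7.11 with resveratrol. Its part in the values of these members was not tested.

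Epithelial and regulatory genes completed the named part of module 2. Elf5 measured 1.98, 1.37, 6.75, 8.69 and 7.81 in lean, 1.68, 1.55, 6.05, 8.43 and 1.73 in obese, 3.23, 1.46, 4.75, 1.86 and 3.20 with rosiglitazone and 1.64 to 1.95 with resveratrol. The adhesion molecule Epcam measured 4.97, 6.42 and 5.03 in lean 3, 4 and 5, 3.83 and 5.57 in obese 3 and 4, and at most 1.58 in the other untreated arrays. Epcam was 1.17 to 2.25 with rosiglitazone and 1.09 to 1.40 with resveratrol. Elf5 and Epcam thus marked the same 5 untreated arrays as the caseins. Krt19, a keratin of simple epithelia, measured 5.08 to 6.90 in lean 3 to 5, 4.66 and 6.59 in obese 3 and 4, and 2.32 to 3.60 in the other untreated arrays. The remaining named rows, all high in those arrays, were the carbonic anhydrases Car2 and Car6, the water and glycerol channel Aqp3, the transporters Slc28a3 (nucleosides) and Slc38a3 (glutamine), the ion pump regulator Fxyd3, the retinoic acid carrier Crabp2, the lipopolysaccharide-binding protein Lbp, the unconventional myosin Myo5c, the surface protein Cd24, the transcription factors Gata3 and Prox1, and Sectm1b, Csta3, Ly6al and Dlg5l15. Dlg5l15 differed from the rest, since it was also high in lean 1 (6.04), obese 2 (4.38) and obese 5 (5.05), the arrays that carry module 1.

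**Figure D1:**
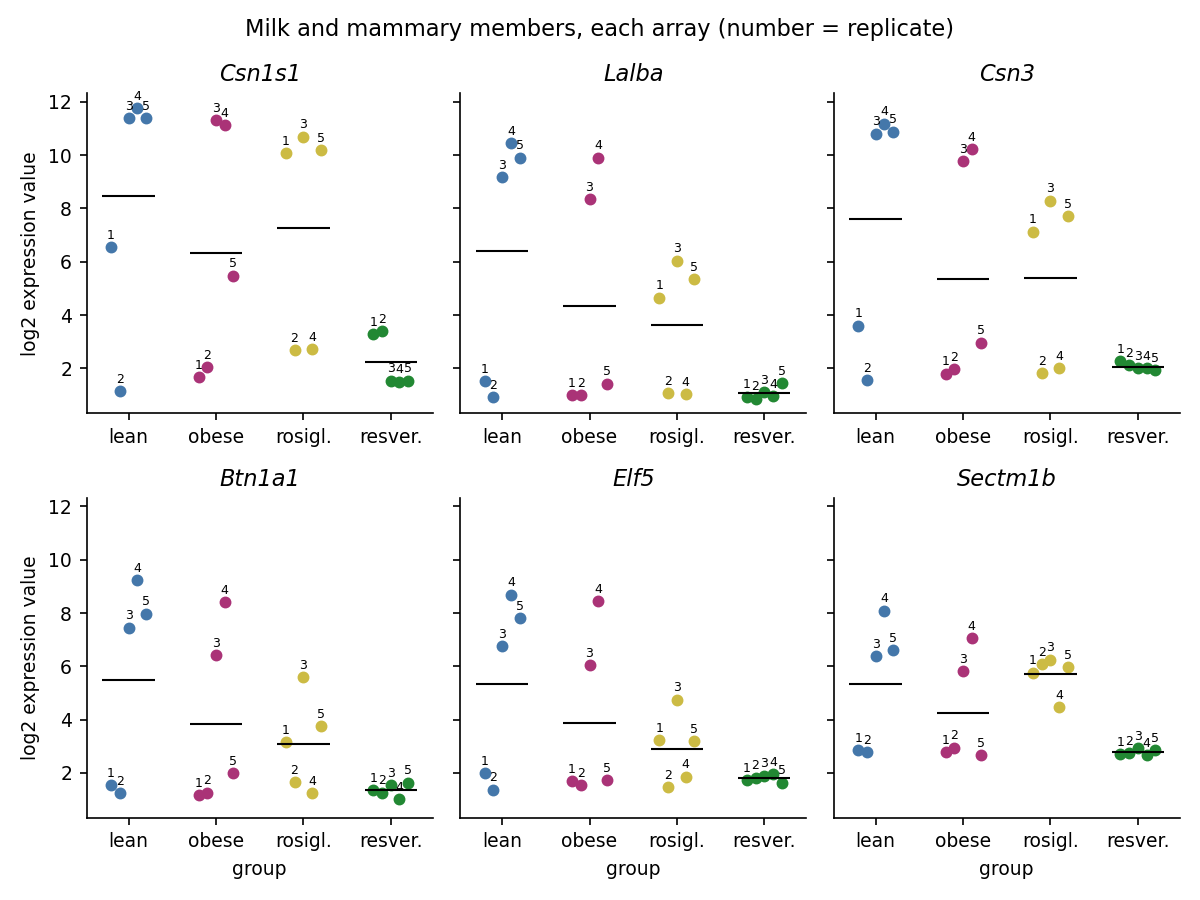
Log2 expression value of 6 members of module 2 in each of 20 arrays, by group (rosigl., rosiglitazone; resver., resveratrol); small digits give the replicate number and black lines the mean of 5 arrays. Lean 3 to 5 and obese 3 and 4 are high in all 6 genes, and all resveratrol arrays are low, with Csn1s1 at most 3.41.

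Of 26 marker lists, 3 held a member. The list for mammary, sebaceous and salivary epithelium had 21 rows, of which 8 were members (Csn1s1, Lalba, Csn3, Oprpn, Elf5, Epcam, Krt19 and Csn2), all of them in module 2. The median of all 21 rows ranged over 1.50 to 5.24 in lean, 1.73 to 4.47 in obese, 1.72 to 2.69 with rosiglitazone and 1.60 to 1.94 with resveratrol. The lipogenesis list held Fads2, and the list for lymph node stroma (8 rows) held Prox1, a factor of lymphatic endothelium. The lists for skeletal muscle, adipocytes, keratinocytes, hair follicle, blood and immune cells, vessels, fibroblasts and nerve held 0 members. Outside the members, other rows were picked after the values were seen. The whey protein gene Wap reached 5.01 in lean 4 and 2.82 in obese 4. Stat5a reached 6.84 in lean 4 and 5.99 in obese 4 with 3.09 to 4.06 in lean 1 and 2 and obese 1, 2 and 5. Krt8, a keratin of the mammary list, repeated the split in lean, with 2.75 and 3.34 in lean 1 and 2 and 3.64, 4.16 and 4.47 in lean 3, 4 and 5. In obese it did so only in part. Krt8 measured 2.85 and 3.54 in obese 1 and 2, but 4.02, 4.03 and 4.04 in obese 3, 4 and 5. Cebpb did not repeat the split, at 3.60 to 4.19 in lean and 3.38 to 4.40 in obese, highest in obese 1.

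Module 1 was carried by a different set of animals. Its median over 145 rows was 7.64, 2.80, 4.30, 4.87 and 4.04 in lean 1 to 5, and 2.57, 6.32, 7.74, 3.87 and 6.69 in obese 1 to 5. Lean 1 was the highest lean array in 145 of its 145 rows (27.9% of all rows), and obese 2, 3 and 5 were the 3 highest obese arrays in 144 of them (17.1% of all rows). These arrays were picked after the values were seen. Module 2 had medians of 2.81, 2.02, 6.52, 8.23 and 7.10 in lean and 2.05, 2.56, 6.05, 7.39 and 2.76 in obese. Obese 3 was high in both modules, and lean 2 and obese 1 were low in both. Spetex2g, the only row of module 1 with 1 symbol, measured 7.13, 2.67, 4.0, 4.48 and 3.54 in lean and 2.06, 5.83, 6.92, 2.83 and 6.16 in obese.

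**Figure D2:**
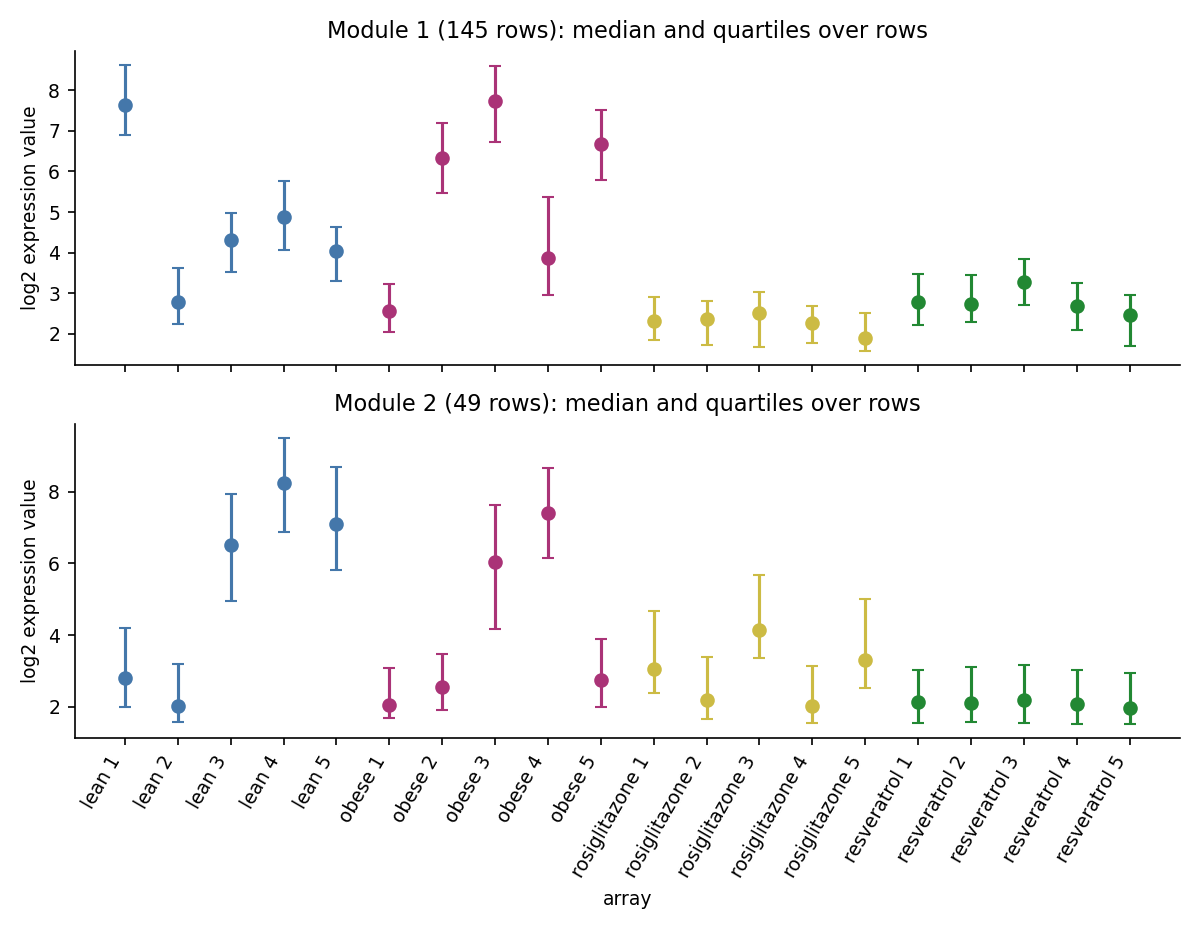
Median log2 value of the rows of module 1 (top, 145 rows) and module 2 (bottom, 49 rows) in each array; bars run from the lower to the upper quartile over rows, which are not replicates. Lean 1 and obese 2, 3 and 5 stand highest in module 1 and lean 3 to 5 with obese 3 and 4 in module 2, while module 1 stays between 1.90 and 3.27 in every treated array.

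The arrays that were high in module 1 also differed in measures of the whole array. Lean 1 and obese 2, 3 and 5 had the 4 highest medians of all rows, 2.68, 2.64, 2.81 and 2.64, against 2.42 to 2.59 in the other 16 arrays. They also had the 4 lowest SDs of all rows, 1.82, 1.82, 1.66 and 1.80, against 1.87 to 1.98. The median of 1277 olfactory and vomeronasal receptor rows, genes of chemosensory neurons that were picked after the values were seen, was 1.57, 1.62, 1.89 and 1.74 in those 4 arrays and 1.14 to 1.37 in the others. Rows without a symbol had a median of 2.38 to 2.58 there and 2.15 to 2.31 elsewhere, while rows with 1 symbol had medians of 3.01 to 3.10 over all 20 arrays. The part of these array-wide differences in module 1 was not tested. Centring each array on its median or quantile normalisation chose 196 and 195 of the 200 members again. That is not a test of these differences. The array medians ran only from 2.42 to 2.81, while the smaller SD of every member was at least 1.48.

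**Figure D3:**
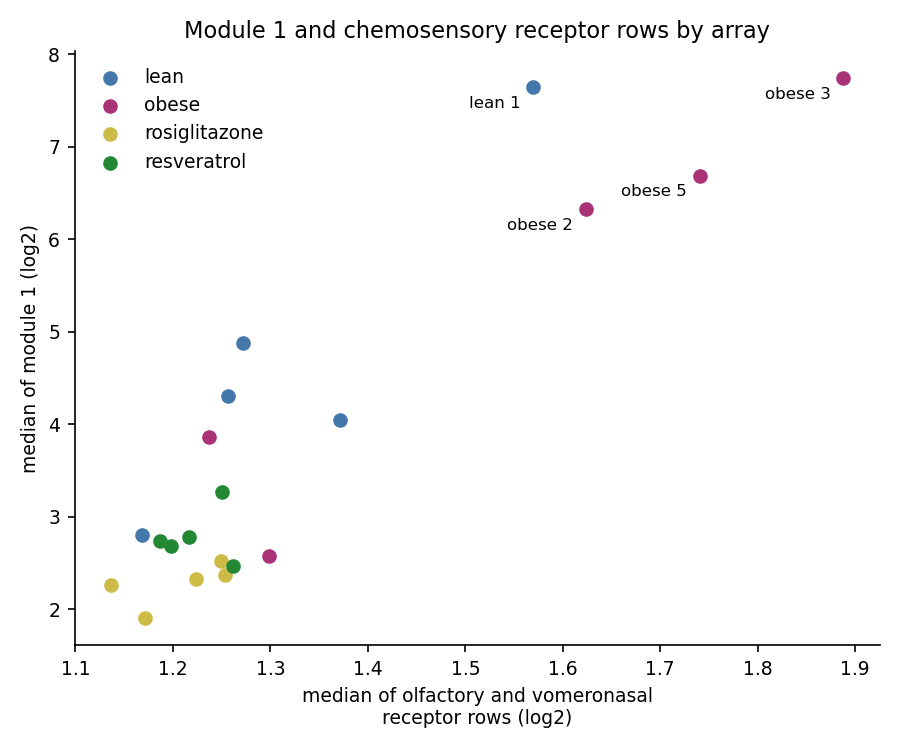
Median log2 value of the 145 rows of module 1 against the median of 1277 olfactory and vomeronasal receptor rows, 1 point per array, coloured by group. The 4 labelled arrays are highest on both axes, with receptor medians of 1.57 to 1.89.

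Module 1 rests on lean 1 more than on any other untreated array. Without lean 1, 91 of the 200 members were chosen again, module 1 fell from 145 to 38 rows and module 2 grew from 49 to 105. Without obese 1, 151 were chosen again. Without obese 4, module 2 fell to 23 rows. The median r of all pairs of members over the untreated arrays, 0.90, became 0.27 without lean 1 and 0.56 without obese 1.

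The 6 members in neither module had no symbol, and a branch of fewer than 10 rows was not counted as a module. Their median was 5.09 in lean 2 and 4.58 in obese 1, the arrays that were low in both modules, and 1.87 and 1.75 in lean 1 and obese 2. In the treated arrays it ranged from 2.07 to 4.65.

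Among treated animals the members varied far less. Their median SD was 1.78 in lean and 2.03 in obese, 0.41 with rosiglitazone and 0.35 with resveratrol, while the median over all rows was 0.27, 0.36, 0.23 and 0.22. The members' median level in the treated arrays, 2.19 to 3.17, was near that of all rows, 2.42 to 2.53. The part of low levels in the small SDs was not tested. All 200 members had a smaller SD with rosiglitazone than in either untreated group, and 196 did with resveratrol; a fall from values chosen for being large is built into the choice. Read against all rows, the members' treated spread was still above the typical row, with a median smaller SD of 0.28 against 0.18. When the same rule was applied to the treated arrays, 8 of the 200 members (4% of either list, both of 200 rows) were among the 200 most variable rows. Those 200 rows are 0.545% of all rows. Of the 8 members, 4 were from module 1, 1 was from module 2 and 3 were from neither.

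The modules differed in where spread remained. Module 2 kept a median SD of 0.72 with rosiglitazone, against 0.22 with resveratrol, and its highest was 4.18, that of Csn1s1. Its medians in the resveratrol arrays, 1.98 to 2.18, lay below the medians of all rows in those arrays, 2.50 to 2.53. The part of this low level in the small SD was not tested. In module 1 the medians were 0.37 and 0.39. The 4 members whose SD with resveratrol was not below both untreated values all lay in module 1, were unnamed, and were high in resveratrol 2. The most variable of them measured 3.75, 8.52, 3.17, 2.44 and 3.06 with resveratrol and 4.86, 5.98, 8.20, 5.93 and 6.78 with rosiglitazone, so it did not share the low treated level of its module.

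**Figure D4:**
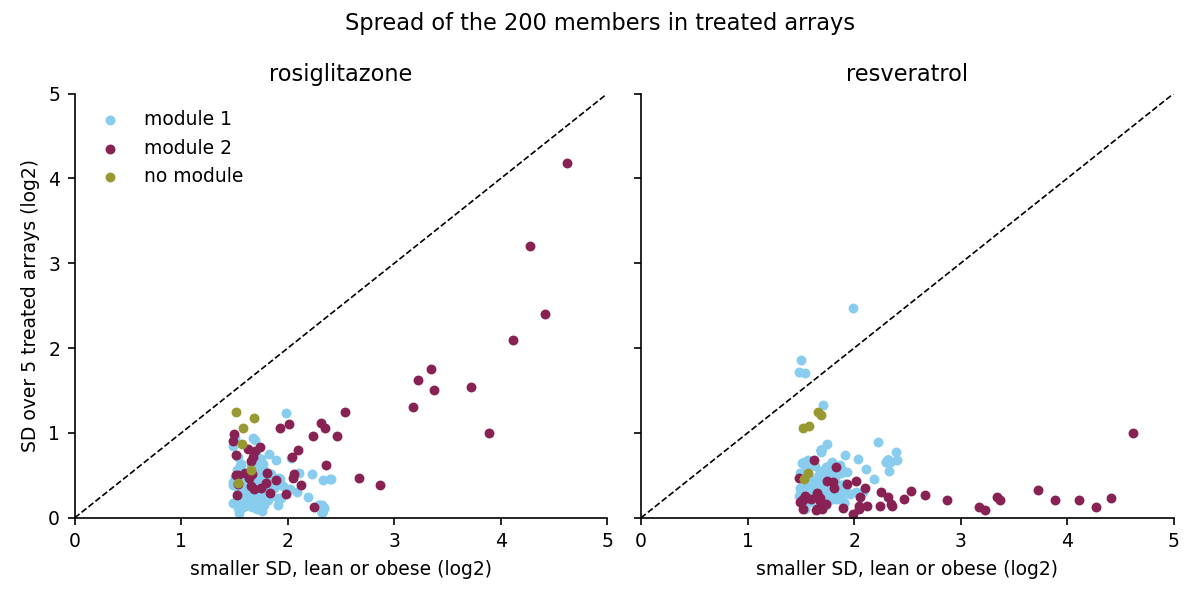
SD of each of the 200 members over 5 rosiglitazone arrays (left) or 5 resveratrol arrays (right) against the smaller of its SDs in lean and obese, in log2 units; the dashed line marks equal values. All members lie below the line with rosiglitazone and 4 rows of module 1 lie above it with resveratrol, where module 2 has a median SD of 0.22.

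Co-variation in the treated arrays persisted in part, mainly in module 2. Over the 10 treated arrays, centred on their group means, the median r within module 2 was 0.65, with 67.1% of pairs over 0.5, against 0.95 in the untreated arrays that formed the module. Within module 1 it was 0.34, with 34.7% of pairs over 0.5, or 0.31 with each set of identical rows counted once. The median between the modules was -0.08 untreated and 0.06 treated. Pairs of all rows had a median r of 0 in both, with 13.4% of untreated and 9.0% of treated pairs over 0.5. These are descriptions over 10 arrays in which all rows share the array and its normalisation. In module 2 the median SD was 0.72 over the rosiglitazone arrays and 0.22 over the resveratrol arrays. Its treated r therefore rests mainly on the rosiglitazone arrays, and r was not computed for each treatment apart. Without rosiglitazone 3 the treated median within module 2 was 0.56, and without resveratrol 3 that within module 1 was 0.24.

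**Figure D5:**
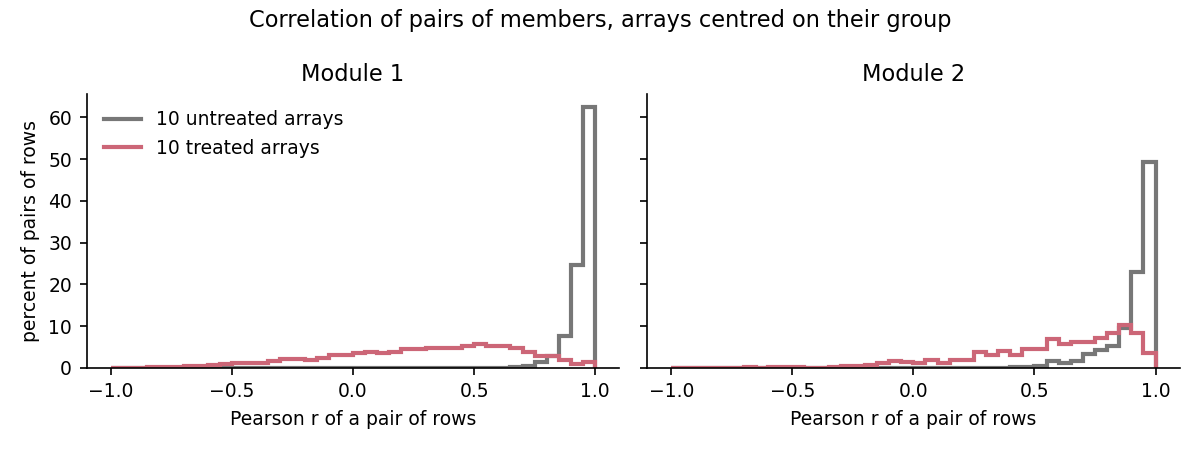
Share of pairs of rows by Pearson's r within module 1 (left, 10440 pairs) and module 2 (right, 1176 pairs), over the 10 untreated arrays that formed the modules and the 10 treated arrays, each centred on its group mean. The treated median lies at 0.34 in module 1 and at 0.65 in module 2.

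The rows of module 2 also shared an order of the rosiglitazone arrays. The arrays set against all rows in this paragraph were picked after the values were seen. Rows of a module move together and are not independent counts. Rosiglitazone 1, 3 and 5 were the 3 highest of their group in 38 of the 49 rows (77.6%), against 10.04% of all rows and 18 of the 145 rows of module 1 (12.4%). The module medians were 3.05, 2.20, 4.16, 2.01 and 3.31 in rosiglitazone 1 to 5. With resveratrol they lay between 1.98 and 2.18, and no resveratrol array stood out. In module 1 resveratrol 3 was the highest of its group in 97 of 145 rows (66.9%, against 20.2% of all rows), at a median of 3.27 against 2.47 to 2.78, and rosiglitazone 5 was the lowest of its group in 64 (44.1%, against 19.0%).

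Rosiglitazone and resveratrol were compared on the 10 treated arrays alone, which makes this test independent of the choice. Sectm1b, Gata3, Car6 and Cd24 of module 2 were higher with rosiglitazone, and 17 unnamed rows of module 1 were lower. In all 22 of 200 members passed an adjusted p of 0.05 (limma, Benjamini-Hochberg over all rows), 5 higher and 17 lower. The background was 3.88% of all rows, 2.2% higher and 1.68% lower, against 11% of the members. Rows of module 1 that repeat one another are counted separately in the members' share. The median log2 difference, rosiglitazone minus resveratrol, was -0.49 in module 1, 0.74 in module 2 and -0.02 over all rows. Leaving out 1 array gave 12 members without resveratrol 3, 13 without resveratrol 1 or rosiglitazone 5, 14 without resveratrol 2 and 43 without resveratrol 5. With the untreated arrays added to the fit, 0 members were called and 5 had an unadjusted p under 0.05, as the spread that chose the members then enters their error.

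Sectm1b, a member of a family of secreted and membrane proteins, had the largest called increase. It measured 5.76, 6.07, 6.25, 4.46 and 5.97 with rosiglitazone and 2.71, 2.73, 2.93, 2.66 and 2.85 with resveratrol. The groups did not overlap, and rosiglitazone 4 was the lowest of its group. The difference was 2.93 on the log2 scale (SE 0.28, 7.62-fold, adjusted p = 0.000165). In the untreated arrays it followed the caseins, with 6.38, 8.09 and 6.62 in lean 3 to 5, 5.82 and 7.06 in obese 3 and 4, and 2.67 to 2.95 in the others.

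Gata3, a transcription factor of luminal mammary epithelium and of T cells, measured 4.22, 3.85, 4.82, 3.55 and 4.48 with rosiglitazone and 2.88, 3.11, 3.51, 3.03 and 2.94 with resveratrol. Its difference was 1.09 (SE 0.22, adjusted p = 0.0181), with no overlap, and the adjusted p was 0.0514 without rosiglitazone 5. Car6, a secreted carbonic anhydrase, measured 5.88 in rosiglitazone 4 and 6.13, 5.79, 6.02 and 5.93 in the others, against 4.73 to 5.46 with resveratrol (log2 0.87, SE 0.15, adjusted p = 0.00552). Sectm1b, Car6 and Gata3 were above every resveratrol array in all 5 rosiglitazone arrays, 2 and 4 included, where the caseins were low. Cd24 measured 3.97, 3.95, 4.0, 3.15 and 4.07 with rosiglitazone and 2.89 to 3.17 with resveratrol (log2 0.77, SE 0.17, adjusted p = 0.0243). Its groups overlapped through rosiglitazone 4, and the call was lost, at an adjusted p of 0.0542 to 0.0647, without resveratrol 1, 2 or 4, and at 0.0595 to 0.0656 without rosiglitazone 1, 2, 3 or 5. The fifth called row of module 2 has no symbol and differed by 1.98 (SE 0.23).

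The casein genes did not pass this test. Csn1s1 had the largest difference, 5.02 (SE 1.60, 95% confidence interval 1.53 to 8.51), at an adjusted p of 0.129. Without rosiglitazone 2 the difference was 6.17 (adjusted p = 0.0447) and without rosiglitazone 4 it was 6.16 (0.0420), the 2 arrays of its group that were low. Leaving out a low array raises the group mean by construction. In the other 15 settings Csn1s1 was not called. Csn3 differed by 3.32 (SE 1.19, adjusted p = 0.188), Lalba by 2.57 (SE 0.90, adjusted p = 0.176) and Olah by 2.37 (SE 0.79, adjusted p = 0.148). These are sizes with wide intervals and not evidence that the groups were alike. Prox1 differed by 1.29 (adjusted p = 0.0522) and passed without rosiglitazone 2 (0.0471) or 4 (0.00535) and under quantile normalisation, centring, array weights or a filter on level (0.0296 to 0.0418). Ly6al, Slc28a3, Slc38a3 and Car2 had differences of -0.09, 0.14, 0.05 and 0.23.

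The 17 rows of module 1 that were lower with rosiglitazone differed by -0.49 to -1.16 on the log2 scale. They comprised 16 distinct profiles, and in 14 rows the arrays of the groups did not overlap. Over the whole module that held for 20 of 145 rows (13.8%), called or not, against 2.57% of all rows, and for 5 of the 49 rows of module 2 in the other direction, against 3.07%. Rows counted as distinct profiles could still share values in single arrays. Several called rows of module 1 read 8.79239 in lean 1, and several read 1.79668 in rosiglitazone 5. Rows of module 1 that share values are thus not independent, and counts over the module include repeated signals. Overlap of their probes was not examined. The 17 became 6 without resveratrol 2, when 4 rows of the module were called higher, 7 without resveratrol 3, 8 without resveratrol 1, rosiglitazone 2 or rosiglitazone 4, 10 without rosiglitazone 5 and 38 without resveratrol 5. The 5 higher rows of module 2 became 3 without rosiglitazone 5, 8 without rosiglitazone 2 and 11 without rosiglitazone 4. The module's median was 2.33, 2.37, 2.52, 2.26 and 1.90 with rosiglitazone and 2.78, 2.74, 3.27, 2.68 and 2.47 with resveratrol, so the groups overlapped only through rosiglitazone 3 and resveratrol 5. Spetex2g measured 2.25, 2.18, 2.32, 2.42 and 2.09 with rosiglitazone and 2.89, 2.84, 3.12, 2.37 and 1.94 with resveratrol, and its difference of -0.38 (SE 0.20) did not pass (adjusted p = 0.425).

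Against the untreated groups, both treated groups lay at the low end of the members' range. The mean of the array medians over all members was 4.87 ± 1.60 in lean (SD, n = 5), 5.16 ± 1.80 in obese, 2.40 ± 0.21 with rosiglitazone and 2.69 ± 0.31 with resveratrol. Lean 2 (2.68) and obese 1 (2.45) lay within the range of the treated arrays, 2.19 to 3.17. Module 1 averaged 4.73 ± 1.79, 5.44 ± 2.14, 2.28 ± 0.23 and 2.79 ± 0.29 in lean, obese, rosiglitazone and resveratrol. Module 2 averaged 5.34 ± 2.75, 4.16 ± 2.40, 2.95 ± 0.87 and 2.10 ± 0.07.

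The counts of members called against obese and lean are descriptions, because the rule chose rows whose untreated arrays disagree and both treated groups are set against the same arrays. A row low in most arrays varies widely only by being raised in some untreated ones. The choice therefore favours lower values in the treated arrays, and the direction of the calls is not independent of it. Rosiglitazone against obese called 128 members, all lower, of which 125 were in module 1 and 3 in module 2; the background was 15% of all rows, and 6.12% lower. The median log2 difference was -3.07 in module 1, -0.94 in module 2 and -0.08 over all rows. Leaving out obese 3 lowered the number to 63, and leaving out obese 5 lowered it to 79. Dlg5l15 (log2 -3.24, SE 0.83, adjusted p = 0.0140) and Spetex2g (log2 -2.51, SE 0.80, adjusted p = 0.0399) were the called rows with 1 symbol.

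Resveratrol against obese called 0 members in limma (background 0%), although 150 members and 9234 of all rows had an unadjusted p under 0.05. The median log2 difference was -2.70 in module 1 and -1.67 in module 2, and -0.04 over all rows. Without obese 1, an array low in both modules, 134 members were called, and without obese 4, 102 were. The rosiglitazone and resveratrol counts share the obese arrays and no test of their difference is drawn from them.

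Against lean, rosiglitazone called 35 members, all lower, 31 in module 1 and 4 in module 2, Dlg5l15 among them (background 5.38%, and 1.7% lower). That count was 99 without lean 2, and 4, 6, 7, 8, 13, 16 and 20 without rosiglitazone 5, lean 4, lean 1, rosiglitazone 4, rosiglitazone 2, rosiglitazone 1 and lean 3. Resveratrol against lean called 0 members (background 0.289%; 157 members and 4943 of all rows at an unadjusted p under 0.05), and 29 without lean 2. Obese against lean called 0 (background 0.0845%; 1 member and 4903 of all rows at an unadjusted p under 0.05), with median log2 differences of 0.68 in module 1 and -0.97 in module 2. Centring each array on its median moved the median difference of all rows from -0.08 to 0.09 for rosiglitazone against obese and from -0.04 to 0.09 for resveratrol against obese, and changed the calls over all rows in the former from 3266 higher and 2246 lower to 5156 and 985. The members called in that comparison were 124 after centring, all lower.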

How the data were processed

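Total RNA from frozen subcutaneous tissue was labelled from 100 ng per sample and hybridised to Rat Gene 2.1 ST arrays (Affymetrix), per the labels' protocols. The authors deposited 1 table of log2 values for 36685 rows on 20 arrays, made with RMA per the submitters' processing notes. Software version, settings, annotation and genome build (not given in the sources used here) could change the values, and the log2 scale is judged from the range of -0.16 to 12.48. Without a strip, scan date or batch in those sources, batches could not be examined. The number of arrays limits the precision.

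Values were used as deposited, with no filter. Of the rows, 14824 had 1 gene symbol in the platform annotation, 829 had several and 21032 had none; only rows with 1 symbol are named. Promoters are RefSeq's for GRCr8. limma 3.58.1 (lmFit, eBayes) in R 4.3.3 tested 6 contrasts, each adjusted over all rows (Benjamini-Hochberg, 0.05). Rosiglitazone against resveratrol was fitted on 10 arrays, the others on 20. The code was tested on simulated data. Figures used matplotlib 3.10.9.

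Named genes follow a rule: the 12 members of largest smaller SD, the 5 of highest mean r per module, up to 3 called increases and decreases with no overlap, and list members. The other symbols of module 2 are given for completeness. Members, lists and rules were chosen with earlier results of these data known. Alternatives were other normalisations, filters, priors, weights, member numbers and spread measures, single arrays left out and a replicate block. The labels do not say whether the replicate number pairs samples between groups, and correlations of same-numbered deviations ran from -0.44 to 0.32.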

Additional observations from a re-analysis of the deposited data

Results flagged for a closer look

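In 4 of 96 combinations of a group and a named member or module, 1 array lay far from the other 4 by Dixon's test at the 95% level; chance alone gives about 1 in 20, or 4.8. Rosiglitazone 4 was low for Sectm1b, at a log2 value of 4.46 against 5.76 to 6.25, and for Cd24, at 3.15 against 3.95 to 4.07. Resveratrol 5 was high for Oprpn, at 1.51 against 1.01 to 1.05, and resveratrol 2 was high for Csn1s2a, at 1.94 against 1.41 to 1.55.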

How the results depend on the processing

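The log2 levels of the members and modules in each group moved by less than the spread between arrays under quantile normalisation and under centring. The count of members called for rosiglitazone against resveratrol, 22, was 34 among rows above the median level and 0 in the fit of 20 arrays, and 12 to 43 with 1 array left out. For rosiglitazone against obese (128) it was 63 to 147 with 1 array left out. For resveratrol against obese (0) it was 2 among rows above the median level and 0 to 134 with 1 array left out. For rosiglitazone against lean (35) it was 73 among rows above the median level, 129 with array weights, 54 when only these groups were fitted and 4 to 99 with 1 array left out. For resveratrol against lean (0) it was 1 among rows above the median level, 54 with array weights and 0 to 29 with 1 array left out. The cause of these shifts was not tested.

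Same-numbered arrays are different animals, and their deviations showed no common direction. For obese against lean, r was 0.32 for replicate 4 and -0.44 for replicate 1. In the comparisons with a treated group it ran from -0.13 to 0.14. With the replicate number as a block, the counts were 27, 106, 0, 19, 0 and 0 for rosiglitazone against resveratrol, rosiglitazone against obese, resveratrol against obese, rosiglitazone against lean, resveratrol against lean and obese against lean.

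With 100 or 400 rows in place of 200, module 1 held 72 or 294 rows and module 2 held 28 or 79. The treated median r was then 0.44 or 0.23 in module 1 and 0.78 or 0.43 in module 2. It was 0.54 in module 2 with Spearman's rho. The smaller median absolute deviation chose 96 of the 200 members again, with a median untreated r of 0.20 and a treated median of 0.20 in module 2. With 1 array left out, the untreated median r was 0.27 to 0.96, module 1 held 38 to 168 rows and module 2 held 23 to 105, the treated median r was 0.22 to 0.65 in module 1, 0.35 to 0.78 in module 2 and -0.059 to 0.16 between them, and the median smaller treated SD was 0.24 to 0.29. Among named genes, the difference of Ly6al between rosiglitazone and resveratrol was -0.09, 0.0056 without rosiglitazone 4 and -0.25 to 0.0056 over all arrays left out in turn, none of them called. Rosiglitazone 4 was the lowest array of its group for Olah, Csta3, Fads2 and Krt19. Leaving it out brought these genes past the threshold, at adjusted p values of 0.0408, 0.0277, 0.0394 and 0.0454.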
